A study of Mus musculus with 37 samples.

Results

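The genes described here encode the proteins of the mitochondrial ribosome. They were chosen by symbol, as every protein-coding gene row whose mouse GENCODE symbol begins with Mrpl or Mrps and a digit, which gave 78 genes of 54752 gene rows, 49 named for the large subunit and 29 for the small one. A further 5 rows with such symbols are processed pseudogenes and were not taken. Mrps36 carries the symbol but belongs to another complex, and Mrps18a and Mrps30 sit in the large subunit, so the symbol is a slightly loose guide to the particle.

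The mitochondrial ribosome translates the few mRNAs of the mitochondrial genome, which encode subunits of the respiratory chain and of ATP synthase. Its proteins are all encoded in the nucleus, made in the cytoplasm and imported; the small subunit reads the mRNA, and the large subunit joins the amino acids. A fully grown oocyte holds a very large number of mitochondria and makes almost no new RNA while it matures, so it works from stored mRNAs, many of which lose or gain poly(A) tail or are degraded on the way to the egg.

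The study sequenced polyadenylated RNA of single oocytes at successive stages of maturation to read changes of 3′ ends and mRNA levels. Oocytes at the germinal vesicle stage (GV, meiosis arrested in prophase) came from the ovary, metaphase I oocytes (MI) from GV oocytes cultured in M16 medium for 8 h, and metaphase II oocytes (MII, the ovulated egg) from the oviduct. All were from C57BL/6 females of 6 to 8 weeks primed with 5 IU of pregnant mare serum gonadotropin (PMSG), with GV oocytes taken 48 h later and MII oocytes 15 h after a further 5 IU of human chorionic gonadotropin (hCG). The stages therefore also differ in hCG, culture or source.

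The labels give 2 batches. Batch A holds 6 GV and 6 MII oocytes, and batch B holds 10 GV and 15 MI oocytes, 37 in all, so each maturing stage was compared with the GV oocytes of its own batch. MI and MII were never sequenced in the same batch, and MI oocytes matured in culture while MII oocytes matured in the animal, so stage, batch and place of maturation cannot be told apart where MI and MII are set side by side. Each replicate is an oocyte, and nothing in the labels says that oocytes of a group come from separate animals, so every p-value measures only the spread between oocytes.

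Total expected counts per oocyte ran from 7509812 to 12648571 in GV and from 9930422 to 13988336 in MII oocytes of batch A. In batch B they ran from 7184193 to 17724506 in GV and from 2709247 to 19390137 in MI oocytes. Every batch A oocyte had counts for all 78 genes, and each batch B oocyte for 76 to 78. The 78 genes together took a median of 0.277% of all counts in GV oocytes of batch A, with a lowest value of 0.235% and a highest of 0.381%. In MII oocytes the median was 0.193%, between 0.136% and 0.252%, so the ranges overlap slightly. Shares in batch B were 0.125% to 0.200% in GV and 0.0962% to 0.240% in MI oocytes, with no separation.

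The oocyte label was checked on marker lists. All 10 oocyte markers had counts in each of the 37 oocytes, and their summed level in batch A was 9692 to 17408 CPM (the counts-per-million scale, over scaled library sizes) at GV and 7392 to 9258 CPM at MII. Among the 15 markers of cumulus and granulosa cells, which surround the oocyte, the sum was 22.4 to 42.5 CPM at GV and 21.8 to 33.6 CPM at MII, with Cyp19a1 at a mean of 16.1 CPM in GV and 17.5 CPM in MII oocytes. In batch B the same sum was 20.6 to 54.7 CPM at GV and 14.2 to 28.1 CPM at MI, and Ptx3, Cd44, Amh and Foxl2 had no counts in either stage there. The 5 blood and immune markers summed to between 0.452 and 1.45 CPM at GV in batch A and to between 0.686 and 13.9 CPM at MII, the highest in MII oocyte 1. In batch B they summed to 0.371 to 4.47 CPM at GV and 0.249 to 5.47 CPM at MI. Whether RNA of other cells has a part in any result was not tested.

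Levels can be compared between genes only per length, so expected transcript counts were divided by annotated length and put on the transcripts-per-million scale (TPM). In GV oocytes of batch A the highest mean levels belonged to Mrps33, a small subunit protein found only in mitochondria, at 421 ± 50.1 TPM (SD, n = 6), and to Mrps36, at 383 ± 99.5 TPM. Next came Mrpl48, a large subunit protein near the central protuberance, at 348 ± 97.2 TPM, Mrpl18 at 237 ± 30.8 TPM, Mrps22 at 205 ± 32.8 TPM and Mrpl22, which lines the exit tunnel of the growing peptide, at 202 ± 36.3 TPM. Neighbours in this order differ by no more than the larger of their SDs, apart from the step from Mrpl48 to Mrpl18. The lowest mean levels were those of Mrpl19, at 1.93 TPM, and Mrps34, at 2.97 TPM with 9.28 TPM in GV oocyte 5. These genes share 36% and 63.4% of their exonic bases with a gene on the opposite strand. The poly(A) RNA captured from the members, Mrps36 of another complex among them, was thus at very unequal levels. How much mRNA the oocytes stored was not tested. In GV oocytes of batch B some of the abundant members kept a similar level and others did not. Mrpl22 was highest there at 421 TPM, Mrps33 was at 276 TPM and Mrpl18 at 238 TPM, while Mrps36 was at 119 TPM, Mrps22 at 113 TPM and Mrpl48 at 98.5 TPM. Across the 78 genes the levels had a Spearman rho of 0.88 between the batches, although genes are not independent replicates and both levels share the annotation and its lengths.

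Summed over the members, the level in GV oocytes of batch A was 5216 TPM at the lowest, 5921 TPM at the median and 6863 TPM at the highest, and in MII oocytes 3289, 3928 and 4694 TPM. The highest MII oocyte lies below the lowest GV oocyte. Both subunits show this separation in TPM. The 49 large subunit genes summed to 2914 to 4029 TPM at GV and 1943 to 2739 TPM at MII, and the 29 small subunit genes to 2165 to 3004 TPM at GV and 1346 to 1956 TPM at MII. In CPM the groups overlap, with 1284 to 2123 CPM at GV and 1029 to 1604 CPM at MII for the large subunit and 900 to 1365 CPM and 616 to 935 CPM for the small one, so the separation depends on the scale. The large to small ratio in TPM was 1.26 to 1.46 at GV and 1.40 to 1.55 at MII, ranges that overlap, and whether the subunits differ was not tested. In batch B the members summed to 3217 to 4600 TPM at GV and 2868 to 5599 TPM at MI, with the ratio at 1.58 to 2.00 and 1.74 to 2.17, and neither the sums nor the ratios separate GV from MI.

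**Figure D1:**
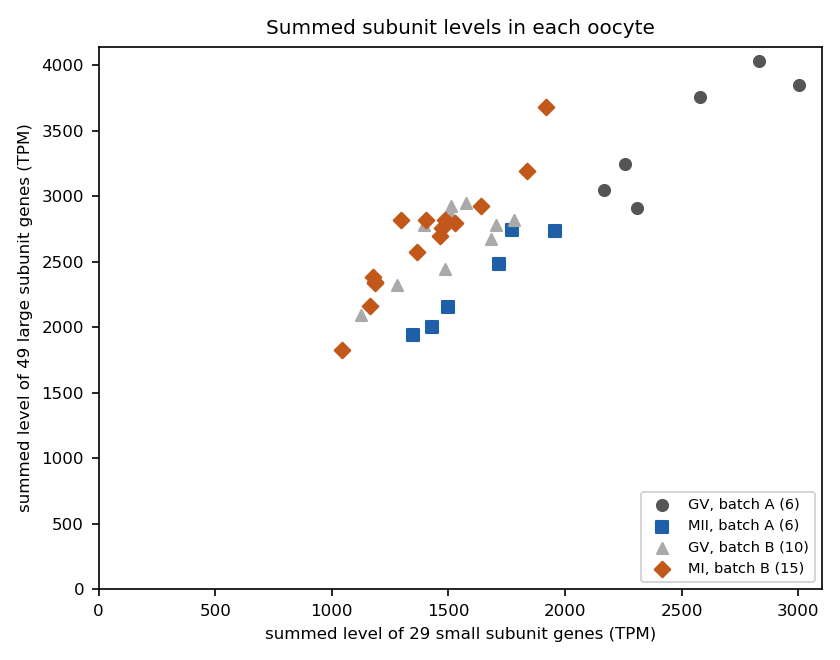
Each point is 1 oocyte, with the summed level of the 29 small subunit genes on the x axis and of the 49 large subunit genes on the y axis, both in TPM and both starting at 0. MII oocytes of batch A lie below and left of the GV oocytes of batch A, at 1943 to 2739 TPM against 2914 to 4029 TPM for the large subunit, while GV and MI oocytes of batch B share one cloud.

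The comparison of GV with MII oocytes asks which stored mRNAs had changed once the egg was formed. Among the mitochondrial ribosomal protein mRNAs nearly every change that passed the test was a fall. By edgeR's quasi-likelihood test with Benjamini-Hochberg adjustment over all 12929 genes tested, which is what adjusted p means throughout, 20 of the 78 members fell by more than 2-fold at an adjusted p under 0.05 and 0 rose, where 6.32% of all genes tested fell and 2.15% rose by that rule. The 20 are 16 large and 4 small subunit genes. The 0 for rises was also 0 by DESeq2 and on HTSeq counts, and 44 members in either direction had an unadjusted p under 0.05, where 34.3% of all genes tested did. With no limit on the fold, 31 members fell, 21 large and 10 small, and 2 rose, against 11.5% and 9.06% of all genes. The other 45 did not pass. On HTSeq counts 16 members fell more than 2-fold, 13 large and 3 small, and 14 of these are among the 20. At any fold 27 fell there, 20 large and 7 small, with 25 among the 31, and 1 rose. Of the 13409 genes tested on HTSeq counts 5.04% fell more than 2-fold, and 8.79% fell and 6.70% rose at any fold. Counting without a test, 21 members had all 6 MII oocytes below all 6 GV oocytes and 0 had them all above, where 5.71% and 4.08% of all genes did.

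In the whole group 66 of 78 fold changes were negative, passed or not, and the median log2 fold change was -0.49, against 0.01 for all genes tested. It was -0.56 for the large and -0.41 for the small subunit, and their difference was not tested. These are changes relative to the rest of the mRNA. The 12 oocytes of batch A also carried ERCC spike-in RNA, with 44665 to 128319 spike-in counts at GV and 120280 to 143061 at MII. Scaled to these, the median of all genes shifted to -0.72, and 52 members fell more than 2-fold, 66 fell at any fold and 0 rose, where 29.3% of all genes fell and 1.01% rose more than 2-fold and 42.2% fell and 1.11% rose at any fold. The median of the members minus that of all genes was then -0.53, close to the -0.50 found without spike-ins. When stage and batch were fitted in 1 model over all 37 oocytes, 12 members fell more than 2-fold and 16 fell at all, 12 and 16 of them among those named by the fit of batch A alone, where 2.82% and 4.05% of the 15083 genes tested fell by these rules. Libraries were primed on poly(A), so a loss of mRNA and a loss of tail cannot be told apart.

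**Figure D2:**
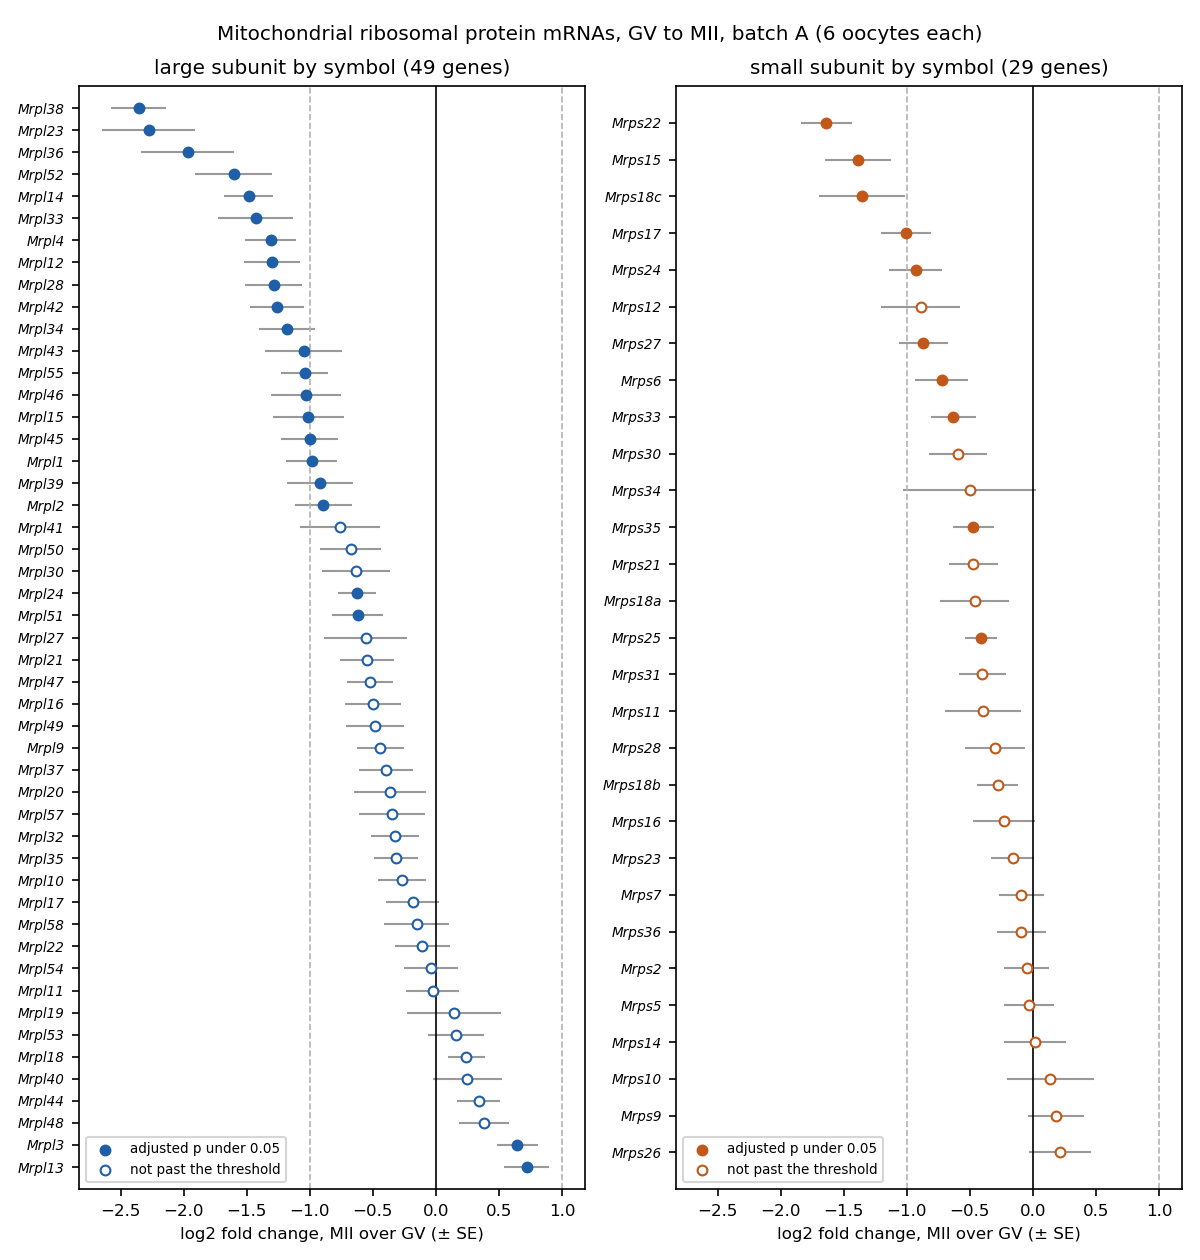
Log2 fold change from GV to MII in batch A for each member (point) with its SE (bar), large subunit genes on the left and small subunit genes on the right, ordered by change, with dashed lines at 2-fold. Filled points passed at an adjusted p under 0.05, and 31 of these 33 lie left of 0, with Mrpl3 and Mrpl13 on the right; both of these lie near 0 when scaled to spike-ins.

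Mrpl38 fell the most. This large subunit protein of the central protuberance, found only in mitochondria (ENSMUSG00000020775.13, chr11:116131817-116138868, GRCm38), was at 20.6, 32.4 and 42.8 CPM in the lowest, median and highest GV oocyte and at 4.67, 5.52 and 8.41 CPM in MII oocytes. All 6 MII oocytes lay below all 6 GV oocytes. The log2 fold change was -2.36 (SE 0.22, adjusted p 6.04e-06), a 5.13-fold lower level. Mrpl23, a protein at the mouth of the exit tunnel (ENSMUSG00000037772.13, chr7:142532686-142540747), fell almost as far. It was at 6.43, 8.06 and 12.2 CPM at GV and at 0.52, 1.64 and 3.20 CPM at MII, with a log2 fold change of -2.28 (SE 0.37, adjusted p 0.000553). Its groups do not overlap either, although its mean in MII oocytes rests on 17.5 expected counts per oocyte.

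Mrpl14, which lies at the interface of the subunits and is held by an assembly factor until the large subunit is ready to join (ENSMUSG00000023939.7, chr17:45686322-45698495), was at 33, 48.3 and 71.2 CPM at GV and at 14.5, 17.8 and 21.6 CPM at MII. The log2 fold change was -1.49 (SE 0.19, adjusted p 8.78e-05). Mrpl4, which reaches into the exit tunnel, went from 32, 55.4 and 86.8 CPM to 18.5, 23.5 and 28.3 CPM, with a log2 fold change of -1.31 (SE 0.20, adjusted p 0.000409). For both genes each MII oocyte lay below each GV oocyte. Mrpl28, a core protein with a bacterial counterpart, was at 27.6, 40.8 and 62.9 CPM at GV and 12.7, 16.5 and 24.3 CPM at MII, and fell by 1.29 on the log2 scale (SE 0.23, adjusted p 0.0011), again without overlap.

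Mrpl12 forms the stalk that draws translation factors to the ribosome (ENSMUSG00000039640.7, chr11:120484613-120489065). Its level was 31.2, 58.8 and 89.3 CPM at GV and 19.8, 24.2 and 27.6 CPM at MII, with a log2 fold change of -1.30 (SE 0.22, adjusted p 0.000944). MII oocytes were not only lower but also closer to one another, with an SD of 2.81 CPM against 22.4 CPM at GV. Mrpl42 and Mrpl55, a pair found only in mitochondria, fell without overlap too. Mrpl42 went from 8.01, 10.4 and 13.1 CPM to 3.19, 4.59 and 5.03 CPM (log2 fold change -1.26, SE 0.22, adjusted p 0.00095), and Mrpl55 from 20.1, 24.8 and 37.9 CPM to 10.9, 12.5 and 15.5 CPM (log2 fold change -1.04, SE 0.19, adjusted p 0.00139). Mrpl55 no longer passed in the model of stage and batch over all oocytes.

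Mrpl45 anchors the ribosome to the inner membrane, where its products are inserted. It was at 15.0, 16.7 and 23.6 CPM at GV and 5.34, 9.28 and 12.4 CPM at MII, without overlap, and its log2 fold change was -1.0 (SE 0.23, adjusted p 0.0061), a call that the model over all oocytes did not give. Mrpl1, of the flexible stalk where spent tRNA leaves, was at 13.8, 18.2 and 25.1 CPM at GV and 7.54, 9.10 and 11.4 CPM at MII (log2 fold change -0.99, SE 0.20, adjusted p 0.0029), and no MII oocyte reached a GV oocyte. Mrpl24, a protein near the tunnel exit, changed less, from 54.9, 70.8 and 92.0 CPM to 37, 45.9 and 57.7 CPM (log2 fold change -0.63, SE 0.15, adjusted p 0.00892). Its groups overlap, and it too did not pass in the model over all oocytes. Mrpl33, a small protein with a bacterial counterpart, went from 5.18, 9.01 and 11.2 CPM to 1.82, 3.35 and 4.80 CPM without overlap (log2 fold change -1.43, SE 0.30, adjusted p 0.0035). HTSeq counts gave it -0.61, which did not pass, and its adjusted p ran from 5.38e-05 to 0.262 over 19 alternatives.

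The remaining large subunit genes that fell more than 2-fold were Mrpl36, Mrpl52, Mrpl34, Mrpl43, Mrpl46 and Mrpl15, named after their values were seen so that all 16 are given. Their log2 fold changes lay between -1.97 for Mrpl36 and -1.01 for Mrpl15. Mrpl36, Mrpl52, Mrpl34 and Mrpl46 had every MII oocyte below every GV oocyte, and Mrpl43 and Mrpl15 did not. Mrpl2, Mrpl39 and Mrpl51 fell by less than 2-fold, by 0.90, 0.92 and 0.62 on the log2 scale.

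In the small subunit Mrps22 stood out for both its level and its fall. It is found only in mitochondria, and inherited variants of the human gene have been linked to ovarian failure (ENSMUSG00000032459.9, chr9:98588730-98601660). Its level was 80.1, 99.8 and 136 CPM at GV and 19.9, 32.1 and 45.8 CPM at MII, and the highest MII oocyte was well under the lowest GV oocyte. The log2 fold change was -1.64 (SE 0.21, adjusted p 6.45e-05), a 3.11-fold lower level. Per length it went from 205 ± 32.8 to 61.0 ± 16.1 TPM (SD, n = 6).

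Mrps15 and Mrps17, core proteins that bind the small subunit's RNA, fell as well. Mrps15 was at 7.67, 11.4 and 14.1 CPM at GV and 2.28, 4.82 and 5.63 CPM at MII (log2 fold change -1.39, SE 0.26, adjusted p 0.00179), and Mrps17 at 39.1, 44.7 and 69.5 CPM and then 16.7, 24.9 and 32.2 CPM (log2 fold change -1.01, SE 0.20, adjusted p 0.00247). Neither gene's groups overlap. Mrps18c, the counterpart of the bacterial small subunit protein of that number, was at 13.3, 19.9 and 32.1 CPM at GV and 3.00, 8.91 and 13.3 CPM at MII (log2 fold change -1.36, SE 0.34, adjusted p 0.011), with its groups just apart. Mrps27, an RNA-binding protein of the pentatricopeptide repeat family, was at 22.9, 27.8 and 36.2 CPM at GV and 10.0, 15.4 and 20.7 CPM at MII, apart as well (log2 fold change -0.87, SE 0.19, adjusted p 0.00547). Mrps15 and Mrps27 did not pass in the model over all oocytes.

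Mrps33, the member of highest level per length in GV oocytes of batch A, went from 137, 158 and 219 CPM to 72.1, 105 and 145 CPM, with a slight overlap (log2 fold change -0.63, SE 0.18, adjusted p 0.019). It did not pass with a replicate block, and its adjusted p over 19 alternatives ran from 0.000116 to 0.0562. Mrps6, Mrps25 and Mrps35, the rest of the small subunit genes that fell and named after their values were seen, had log2 fold changes of -0.72, -0.41 and -0.47, and their groups overlap. Mrps12, a protein of the decoding centre, came close. It was at 8.53, 13.8 and 16 CPM at GV and 3.11, 6.57 and 12.4 CPM at MII, with overlap, a log2 fold change of -0.89 (SE 0.31) and an adjusted p of 0.0535. Leaving out GV oocyte 1 gave -0.98 and leaving out MII oocyte 2 gave -1.11, which both passed, as did the fits by DESeq2, without a filter and with spike-ins, and its adjusted p over 19 alternatives ran from 0.00102 to 0.308.

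The members whose symbol and place differ did not pass. Mrps18a and Mrps30, which sit in the large subunit, had log2 fold changes of -0.46 (SE 0.27, adjusted p 0.247) and -0.59 (SE 0.23, adjusted p 0.0778), with groups that overlap. Mrps30 passed at -0.73 without GV oocyte 2 and at -1.37 with spike-ins, and its adjusted p over 19 alternatives ran from 0.00155 to 0.571. Mrps18b, a small subunit relative of Mrps18c, was at 31.8, 43.3 and 50.1 CPM at GV and 25.4, 33.8 and 43.3 CPM at MII (log2 fold change -0.28, SE 0.16, adjusted p 0.241). Mrps36, a subunit of the 2-oxoglutarate dehydrogenase complex, was at 79.2, 97.8 and 153 CPM and then 78.4, 107 and 129 CPM (log2 fold change -0.09, SE 0.19, adjusted p 0.77). When the particle is counted by structure, with Mrps36 left out, 16 of 51 large and 4 of 26 small subunit genes fell more than 2-fold, and the medians were -0.56 and -0.41 as before.

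Parts with and without a bacterial counterpart had similar medians. Of 43 members with a bacterial counterpart 17 fell and 2 rose, with a median log2 fold change of -0.50. Of 31 found only in mitochondria 14 fell, with a median of -0.52, and 4 members are in neither class. Here Mrpl55 was moved from the first class to the second after the values were seen; with it in the first class 18 of 44 and 13 of 30 fell, at medians of -0.52 and -0.51. Across the 78 genes the change was unrelated to the GV level (Spearman rho -0.01) and to coding length (rho 0.10), and shorter mRNAs had somewhat larger falls, with a rho of 0.31 for transcript length and 0.33 for 3′ UTR length. These are descriptions over genes that share the same 12 oocytes. Shorter mRNAs among genes that fell are not particular to the members. Main coding transcripts of all genes tested had a median of 2690 bases, and of those that fell 1567.5 bases. In the members the medians were 1221 and 1107 bases, so they are short as a group.

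The members that rose, in counts, are both core large subunit proteins. Mrpl3, which lies near the peptidyl transferase centre (ENSMUSG00000032563.16, chr9:105053239-105079888), was at 19.5, 23.7 and 35.5 CPM at GV and 34, 38.2 and 47.9 CPM at MII. A single GV oocyte reached into the MII range. The log2 fold change was 0.65 (SE 0.17, adjusted p 0.0122), but it was -0.06 when scaled to spike-ins, and the model over all oocytes did not pass it, with an adjusted p from 0.00187 to 0.839 over 19 alternatives. Mrpl13 (ENSMUSG00000022370.13, chr15:55534094-55557748) was at 33.8, 40.4 and 66.4 CPM at GV and 58.8, 75.7 and 91.6 CPM at MII, with some overlap, and a log2 fold change of 0.72 (SE 0.18, adjusted p 0.0103). Per length its level did not go up, at 38.2 ± 5.04 TPM at GV and 35.3 ± 6.88 TPM at MII (SD, n = 6). With spike-ins that was 0.06, and the model over all oocytes did not pass it. HTSeq counts turned it to a fall of -1.09 that passed, and its adjusted p over 19 alternatives ran from 0.00136 to 0.812. Its transcripts moved in both directions.

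Several members with positive fold changes did not pass, abundant ones among them. Mrpl48 was at 112, 166 and 241 CPM at GV and 143, 220 and 274 CPM at MII (log2 fold change 0.38, SE 0.20, adjusted p 0.195). Mrpl18 was at 94.8, 114 and 145 CPM and then 112, 140 and 169 CPM (log2 fold change 0.24, SE 0.15, adjusted p 0.26). Mrpl44, which has the fold of an RNase III, was at 12.4, 14.4 and 20.6 CPM and then 17.2, 19 and 22.6 CPM (log2 fold change 0.34, SE 0.17, adjusted p 0.172). For each of the 3 genes GV and MII oocytes overlap, and the sign turns negative when scaled to spike-ins, at -0.30, -0.47 and -0.43. Mrpl22 had a log2 fold change of -0.11 (SE 0.22, adjusted p 0.762) and Mrpl58, a peptidyl-tRNA hydrolase built into the ribosome that frees stalled chains, one of -0.15 (SE 0.26, adjusted p 0.714), and Mrpl22, Mrpl58, Mrps36, Mrps18a, Mrps18b and Mrps30 passed as falls with spike-ins.

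**Figure D3:**
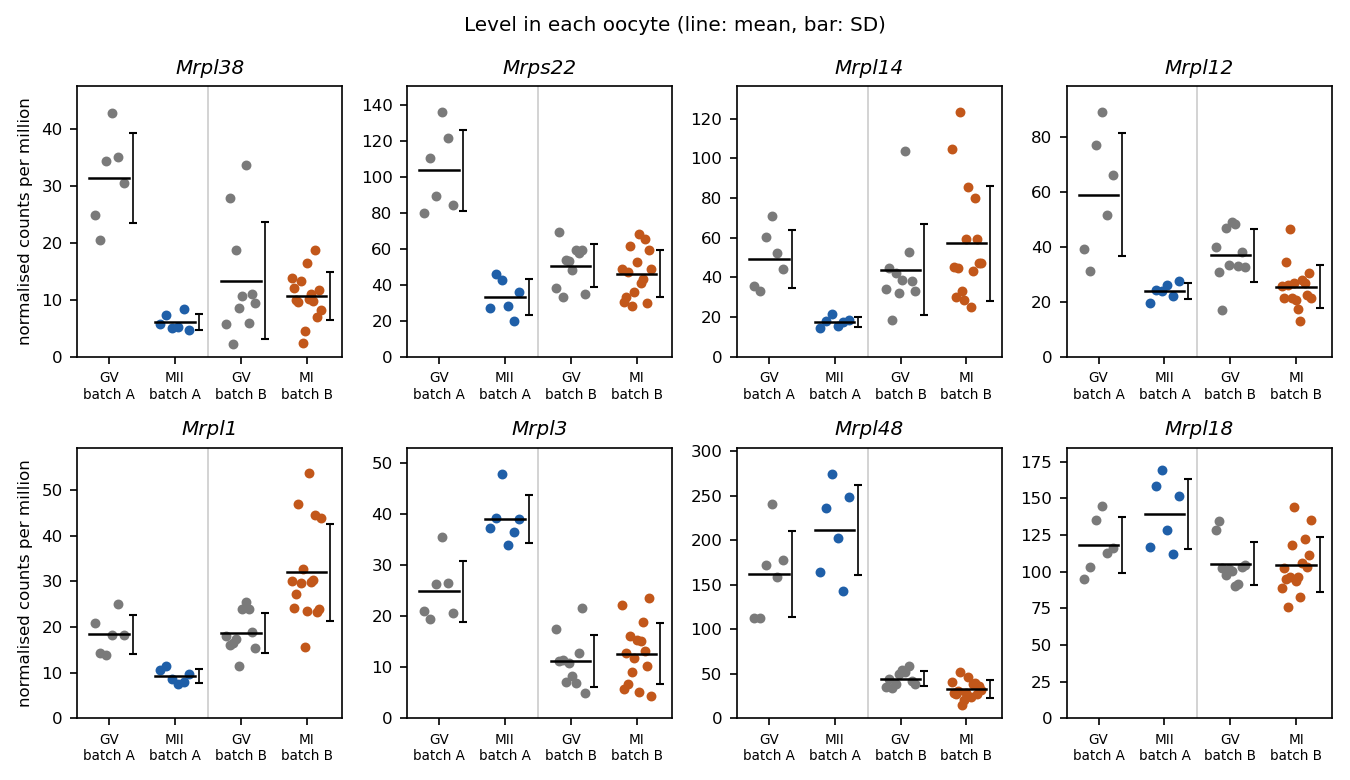
Normalised CPM in each oocyte (points, with the mean as a line and the SD as a bar) for 8 members, with batch A to the left and batch B to the right of the grey line in each panel, each batch scaled on its own. MII oocytes lie below all GV oocytes of batch A for Mrpl38, Mrps22, Mrpl14, Mrpl12 and Mrpl1, and MI oocytes of Mrpl1 reach 53.6 CPM where the GV oocytes of batch B reach 25.5 CPM.

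Expected counts were also deposited per transcript, which gives an estimate of which annotated forms carry a change. The paper describes large uncertainty when forms are estimated from short reads. The 78 genes have 331 annotated transcripts, of which 146 were tested in batch A, and 22 fell and 1 rose more than 2-fold at an adjusted p under 0.05, where 4.23% of the 22461 transcripts tested fell and 1.35% rose. The count of 23 was 15 without GV oocyte 3, 13 without GV oocyte 5, 13 without MII oocyte 4, 10 with a replicate block and 74 when scaled to spike-ins. The 1 rise was 0 beyond 2-fold without GV oocyte 1, 2, 3 or 5, without MII oocyte 2 or 4, without a filter and with spike-ins. The 22 belong to 21 genes, and 17 of these genes also fell more than 2-fold as a whole. Of the 22, 19 are protein-coding forms, as are 114 of the 146 tested, and no test compared these shares. Mrpl38-201, Mrps22-201 and Mrpl14-201, the coding forms with the smallest adjusted p, went with their genes.

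In 4 genes a transcript fell more than 2-fold where the gene did not, and in Mrps24, Mrpl35 and Mrpl47 that transcript is not annotated as coding. Mrps24, a small subunit protein at the mRNA entry, fell per gene from 22.2, 28.1 and 41.5 CPM at GV to 11.5, 14.9 and 23.4 CPM at MII, with a slight overlap (log2 fold change -0.93, SE 0.21, adjusted p 0.00559), a call the model over all oocytes did not give. Its retained-intron form Mrps24-201 fell from 13.5 to 25.9 CPM at GV to 2.05 to 6.99 CPM at MII, without overlap (log2 fold change -2.11, SE 0.29, adjusted p 0.000804). The coding form Mrps24-205 was at 3.66 to 13.7 CPM at GV and 6.12 to 15.2 CPM at MII (log2 fold change 0.34, SE 0.34, adjusted p 0.614). As a share of the gene's level per length, the retained-intron form went from 72.9% ± 7.00 to 35.9% ± 9.11 and the coding form from 19% ± 6.96 to 53.5% ± 8.81 (SD, n = 6). By these estimates the fall of Mrps24 lay in the form with the intron, and the coding form did not pass in either direction. Mrps24 shares 15.4% of its exonic bases with Urgcp on the same strand. Whether reads of Urgcp or the division of reads among forms has a part in this was not tested.

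Mrpl13 is the gene with transcripts that moved both ways. Mrpl13-204, a retained-intron form of 6008 bases, rose from 21.9 to 57.3 CPM at GV to 58.2 to 83.9 CPM at MII, just without overlap (log2 fold change 1.01, SE 0.23, adjusted p 0.0157). The coding form Mrpl13-205 fell from 6.12 to 13.3 CPM to 2.10 to 6.53 CPM, with overlap (log2 fold change -1.25, SE 0.36, adjusted p 0.0469). In share of the gene's level per length the coding form went from 46.1% ± 13.4 to 18.9% ± 6.42 and the long form from 35.9% ± 12.4 to 74.4% ± 5.93 (SD, n = 6). Why HTSeq and expected counts differ in sign for this gene was not tested. Scaled to spike-ins, the change of Mrpl13-204 was 0.41 and did not pass.

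Smaller rises passed without reaching 2-fold. Mrpl48-207, a form annotated as coding, was at 51.8 to 101 CPM at GV and 95.5 to 167 CPM at MII, with a slight overlap (log2 fold change 0.84, SE 0.18, adjusted p 0.0123), and its share of the gene went from 32.6% to 49.2%. Mrpl3-204, a form marked for nonsense-mediated decay by the annotation, was at 10.3 to 17 CPM and then 17.3 to 29.4 CPM (log2 fold change 0.80, SE 0.19, adjusted p 0.0183), just apart, so the form of Mrpl3 that passed is not annotated as coding. With spike-ins or with a replicate block neither passed, and Mrpl3-204 did not pass without a filter either. Mrpl58-209, a coding form with a long 3′ UTR of 1952 bases, had a log2 fold change of 0.91 (SE 0.32, adjusted p 0.0962), which passed by DESeq2 alone, and its share went from 6.54% to 18.8%.

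The 3′ ends of the mRNAs were read for letters known from maturing oocytes. TTTTAT and TTTTAAT are forms of the cytoplasmic polyadenylation element, a site through which stored mRNAs gain or keep poly(A) tail, and AATAAA and ATTAAA are the signals at which the tail is first added. In the last 100 bases of the 3′ UTR of each gene's main coding transcript, on the mRNA strand, TTTTAT or TTTTAAT was present in 1 of 25 members that fell (4%) and in 9 of 45 that did not (20%), with 10 of 70 in all (14.3%). The share was 20.3% of 10279 genes tested and 10.9% of the 1057 of these that fell. AATAAA or ATTAAA was present in 51 of 70 members (72.9%) and in 81% of all. Members whose 3′ UTR has under 100 bases were not searched. This left 25 of the 31 members that fell and 45 of the 47 that did not, so the sets were searched unevenly. The median 3′ UTR had 311.5 bases among members and 840 among all genes tested.

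The following 30-base stretches hold the element in all 9 members with it that did not fall, and in Mrpl51, the 1 member with it that fell (log2 fold change -0.62, adjusted p 0.0387, with overlap). Capitals mark TTTTAT or TTTTAAT and any AATAAA or ATTAAA beside it, and coordinates are GRCm38 (mm10) with GENCODE M21 ends. Each is written 5′ to 3′ on the mRNA strand.
Mrpl44, chr1:79781359-79781388, plus strand: taTTTTATtccctccagctttgaagtgtag
Mrpl53, chr6:83109909-83109938, plus strand: caTTTTAATTAAAtatttattgccaaatga
Mrpl11, chr19:4966970-4966999, plus strand: acaATTAAAacTTTTATtacgtgtataatc
Mrps18b, chr17:35910385-35910414, minus strand: gcTTTTATacAATAAAgctgtgtctcttca
Mrpl49, chr19:6053671-6053700, minus strand: gtTTTTATtgagctgtatatacaatttaag
Mrpl50, chr4:49512637-49512666, minus strand: acTTTTATgtatcactttattatttctttt
Mrps2, chr2:28471141-28471170, plus strand: taTTTTAATatatgtttacagtaaaccacc
Mrps10, chr17:47378606-47378635, plus strand: ctTTTTATttctggaactcatggagatcta
Mrps14, chr1:160202077-160202106, plus strand: gtTTTTATgttctatgcatctacttttcct
Mrpl51, chr6:125196213-125196242, plus strand: tcTTTTATgacgtaacagtccattcttaaa
In Mrpl53, Mrpl11 and Mrps18b the element lies next to a poly(A) signal, and in Mrpl53 the pair share letters. Their log2 fold changes were 0.16, -0.03 and -0.28, none of which passed. Among the others Mrpl50 was at -0.68 (adjusted p 0.0581) and Mrpl49 at -0.48 (adjusted p 0.15), with all 6 MII oocytes of Mrpl49 below all 6 GV oocytes, and Mrpl44, Mrps10, Mrps14 and Mrps2 were at 0.34, 0.14, 0.02 and -0.05.

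For contrast, these are the last 30 bases of the main coding transcripts of members that fell far, with AATAAA or ATTAAA in capitals.
Mrpl38, chr11:116131817-116131846, minus strand: atgtgAATAAAatacttttttcctgatgcc
Mrps22, chr9:98588730-98588759, minus strand: ttgggATTAAAaggtacttactgacttaaa
Mrpl23, chr7:142540718-142540747, plus strand: gcccaAATAAAaattctttgtggagaaaga
Mrpl14, chr17:45698466-45698495, plus strand: ataaatgttttaatgtatgttttcttccta
Mrpl38, Mrps22 and Mrpl23 each carry a signal 19 bases from the end. Mrpl23 and Mrpl14, with 3′ UTRs of 85 and 81 bases, were not among the genes searched, and the end of Mrpl14 does hold the letters TTTTAAT although it fell, so the element and the fall do not exclude each other. A match of letters is a description only, and the ends used in these oocytes can differ from the annotated ones.

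The comparison of GV with MI oocytes asks what had already changed by metaphase I. Of the 76 members tested in batch B, 0 passed at an adjusted p under 0.05 by edgeR, at any fold, where 0.121% of the 12419 genes tested changed more than 2-fold and 0.145% changed at any fold. Mrpl19 and Mrps34 had too few counts to be tested. At an unadjusted p under 0.05 there were 11 of 76, with 8 lower and 3 higher at MI, where 11.0% of all genes tested had such a p, so nothing is read from the 11. HTSeq counts gave 0, and DESeq2 and the model over all oocytes gave 1 each, Mrpl1. Of the members' fold changes 44 of 76 were negative, where 47.8% of those of all genes tested were. The median log2 fold change was -0.07, against 0.02 for all genes, with -0.03 for the large and -0.12 for the small subunit. Of their transcripts 0 of 144 passed, with a background of 0% of 22717 transcripts, and 0 passed by DESeq2. At an unadjusted p under 0.05 there were 15 of the 144, where 7.11% of all transcripts tested had such a p. No member had its GV and MI oocytes fully apart.

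Mrpl1 came nearest, and toward a higher level. It was at 11.5, 17.7 and 25.5 CPM in the lowest, median and highest GV oocyte of batch B and at 15.5, 29.8 and 53.6 CPM in MI oocytes. The median MI oocyte exceeds the highest GV oocyte, though the groups overlap. The log2 fold change was 0.77 (SE 0.18, adjusted p 0.0747), and over 8 alternatives the adjusted p ran from 0.00816 to 0.436. Mrps26, a small subunit protein found only in mitochondria, was at 2.64, 4.81 and 9.16 CPM at GV and 1.16, 9.24 and 21.8 CPM at MI (log2 fold change 1.01, SE 0.35, adjusted p 0.223), and HTSeq counts put it at 0.02. Mrpl13 was at 21.1, 36.4 and 59.5 CPM and then 10.2, 53.0 and 151 CPM (log2 fold change 0.87, SE 0.31, adjusted p 0.245), and HTSeq counts put it at -0.18. The MI oocytes of both genes spread on either side of the GV oocytes.

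On the lower side were Mrpl12, Mrpl48 and Mrpl24. Mrpl12 was at 17.2, 35.8 and 49.1 CPM at GV and 12.9, 25.8 and 46.5 CPM at MI (log2 fold change -0.53, SE 0.17, adjusted p 0.2). Mrpl48 was at 34.2, 43.0 and 58.5 CPM and then 15.2, 30.6 and 52.3 CPM (log2 fold change -0.44, SE 0.16, adjusted p 0.247), and Mrpl24 at 21.5, 34.1 and 37.1 CPM and then 8.47, 21.8 and 32.1 CPM (log2 fold change -0.48, SE 0.17, adjusted p 0.247). In all 3 genes the groups overlap. Among the members that fell most by MII, Mrpl38 was at 2.22, 10.0 and 33.6 CPM at GV and 2.35, 10.1 and 18.8 CPM at MI (log2 fold change -0.33, SE 0.32, adjusted p 0.774), and Mrps22 at 33.1, 53.4 and 69.1 CPM and then 28, 47.1 and 68.3 CPM (log2 fold change -0.13, SE 0.16, adjusted p 0.837). In both genes MI and GV oocytes overlap.

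Whether a change to MII differs from the change to MI was tested as a difference of the fold changes, each against its own GV oocytes, over all 37 oocytes and 15083 genes. In 8 members the change to MII was the lower of the pair at an adjusted p under 0.05 and in 1 the higher, against 2.36% and 3.1% of all genes. The members' share on the lower side is above the background, and nothing is read from the 1 on the higher side. Of the 78 differences 58 were negative, where 47.7% of those of all genes tested were. The test takes the batch to act alike on both stages of a batch. Mrpl1 had the smallest p, with a difference of -1.68 on the log2 scale (SE 0.29, adjusted p 0.000327), from a positive change to MI and a fall to MII. Next were Mrps22 at -1.43 (SE 0.28, adjusted p 0.00123) and Mrpl14 at -1.8 (SE 0.40, adjusted p 0.00451). In Mrpl14 the MI oocytes, at 25.3, 47.2 and 123 CPM, lay about the GV oocytes, at 18.6, 38.4 and 104 CPM, while all 6 MII oocytes lay below their GV oocytes.

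Mrpl23, Mrpl52, Mrpl38, Mrpl42 and Mrpl2 had differences of -2.21, -1.92, -1.96, -1.29 and -1.24. Mrpl48 was the 1 on the other side, at 0.90 (SE 0.27, adjusted p 0.0374), with neither of its own changes passing. HTSeq counts kept 4 of the 9, which are Mrpl38, Mrpl14, Mrpl1 and Mrps22, and the fit without a filter kept 7, without Mrpl48 and Mrpl42. Across 76 genes the change to MI and the change to MII were unrelated in rank (Spearman rho 0.03), a description over genes from oocytes that share no controls.

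**Figure D4:**
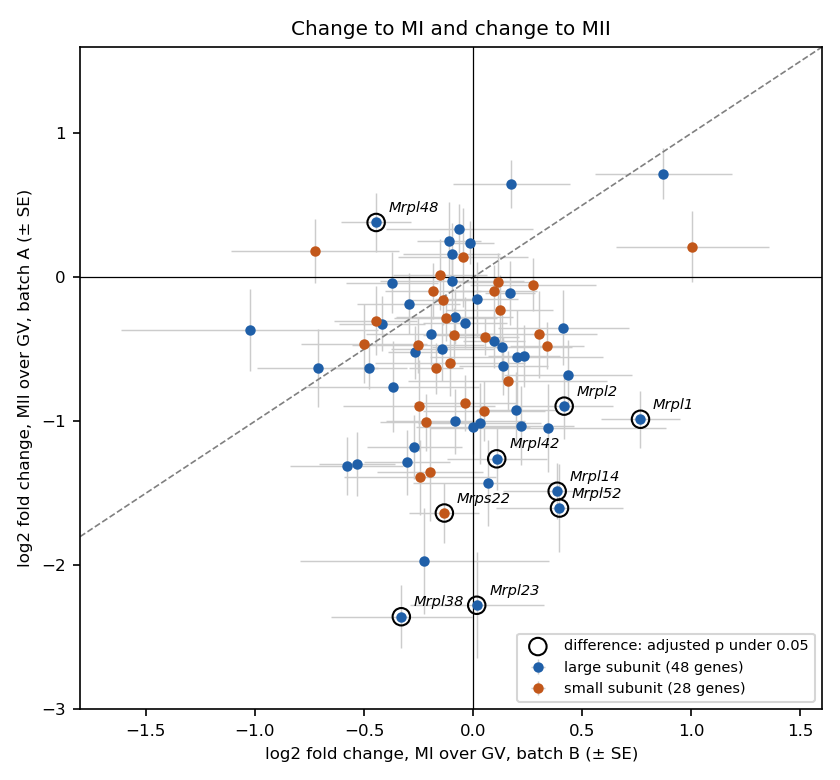
Each point is 1 member, with its log2 fold change from GV to MI in batch B on the x axis and from GV to MII in batch A on the y axis, bars giving the SE and the dashed line equal change. The 9 circled members differ between the changes at an adjusted p under 0.05, and 8 of them lie below the line, with Mrpl48 above it.

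The genes that serve or resemble the mitochondrial ribosome were set beside it, starting with its proteins of other names. Of 5 such proteins tested, 2 fell from GV to MII and 0 rose, where 11.5% of all genes fell and 9.06% rose at any fold. The other 3 of the 5 did not pass. Chchd1 was at 10.7, 19.9 and 28.5 CPM at GV and 2.75, 6.40 and 10.0 CPM at MII (log2 fold change -1.69, SE 0.31, adjusted p 0.00151), and Aurkaip1 at 28.2, 38.4 and 55.7 CPM and then 11.5, 17.1 and 25.8 CPM (log2 fold change -1.13, SE 0.22, adjusted p 0.00245). Both are small subunit proteins whose groups do not overlap. Ptcd3, also of the small subunit, was at 15.6, 20.7 and 25.4 CPM and then 25.5, 27.3 and 35.6 CPM, just apart in the other direction (log2 fold change 0.46, SE 0.16, adjusted p 0.0539). Ptcd3 passed in 5 of 19 alternatives. Among these were the fits without GV oocyte 5, at 0.52, without GV oocyte 6, at 0.51, by DESeq2 and on HTSeq counts. It was -0.28 with spike-ins, and its adjusted p ran from 0.0274 to 0.383 over the 19 alternatives.

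For the factors that run and build the ribosome the counts are small and stand beside 11.5% of all genes that fell and 9.06% that rose at any fold, so nothing is read from them as groups. Of 12 translation factors 0 fell and 1 rose, with a median of 0.01. The 0 was also the count beyond 2-fold. Gfm1, the elongation factor that moves the ribosome along, was at 35.1, 45.7 and 51.6 CPM at GV and 52.8, 63.8 and 66.9 CPM at MII, just apart (log2 fold change 0.47, SE 0.13, adjusted p 0.0195), but it turned to -0.24 with spike-ins and did not pass without a filter, with a replicate block or in the model over all oocytes. Of 21 assembly and rRNA modification factors tested 1 fell and 2 rose, with a median of -0.07. Rbfa, which acts on the small subunit RNA, fell by 0.95 on the log2 scale (SE 0.24, adjusted p 0.0123), from 6.26, 8.04 and 9.39 CPM to 2.51, 4.32 and 5.49 CPM without overlap. The model over all oocytes did not pass it.

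The assembly factors that rose are both RNA methyltransferases, and both calls depend on which oocytes enter. Mettl15 was at 2.60, 5.75 and 10.1 CPM at GV and 8.95, 11.0 and 15.5 CPM at MII, with overlap (log2 fold change 0.94, SE 0.28, adjusted p 0.0261), and did not pass without GV oocyte 3, at 0.85, or MII oocyte 6, at 0.84, nor with spike-ins or in the model over all oocytes. Nsun4 was at 138, 156 and 164 CPM and then 172, 199 and 213 CPM, apart (log2 fold change 0.36, SE 0.11, adjusted p 0.0316). It did not pass without GV oocyte 1 or 5, at 0.34 and 0.36, or without MII oocyte 2, 3 or 4, at 0.34 in each case, nor without a filter, with a replicate block or in the model over all oocytes, and turned to -0.37 with spike-ins. Of 15 mitochondrial aminoacyl-tRNA synthetases, which load the tRNAs, 1 fell and 1 rose, with a median of -0.32. Sars2 was at 5.42, 8.26 and 11.1 CPM at GV and 3.38, 3.82 and 6.80 CPM at MII, with overlap (log2 fold change -0.91, SE 0.26, adjusted p 0.0228), and did not pass without GV oocyte 3, at -0.80, without a filter, on HTSeq counts, with a replicate block or in the model over all oocytes. Lars2 was at 2386, 3946 and 7742 CPM at GV and 4756, 6895 and 13809 CPM at MII, with overlap (log2 fold change 0.93, SE 0.29, adjusted p 0.0324). It did not pass without any 1 of GV oocytes 2, 4, 5 and 6, at 0.81, 0.96, 0.82 and 0.88, or of MII oocytes 4 and 5, at 0.87 and 0.72, nor with spike-ins. The level of Lars2 is far above that of Sars2, and which RNA its reads come from was not tested. In batch B 0 genes of these lists passed by edgeR.

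Other fixed lists are given beside the 11.5% of all genes that fell, the 6.32% that fell more than 2-fold and the 9.06% that rose. Of 81 cytoplasmic ribosomal protein genes tested, 58 fell, 44 of them more than 2-fold, and 1 rose, with a median of -1.07. Rps15 went from 16.1, 27.9 and 36.7 CPM to 1.66, 3.35 and 4.41 CPM (log2 fold change -3.11, SE 0.28, adjusted p 4.93e-06), without overlap. The riser, Rpl5, at 0.73 (SE 0.24, adjusted p 0.0431) with overlapping groups, was a fall of -1.04 on HTSeq counts, and it did not pass without any 1 of GV oocytes 1, 3, 4 and 6 (0.59 to 0.79) or of MII oocytes 1, 2, 3, 5 and 6 (0.62 to 0.75), nor with spike-ins or in the model over all oocytes. Of 80 nuclear-encoded respiratory chain subunits 39 fell, 26 more than 2-fold, and 1 rose, with a median of -0.69. Atp5h, of ATP synthase, went from 58.6, 80.9 and 103 CPM to 17, 24 and 30.1 CPM (log2 fold change -1.79, SE 0.18, adjusted p 1.05e-05), and Ndufs7, of complex I, fell by 2.32 (SE 0.29, adjusted p 5.82e-05), each without overlap. Sdha, of complex II, rose by 0.54 on the log2 scale (SE 0.14, adjusted p 0.0129), from 124, 173 and 236 CPM to 233, 256 and 265 CPM with a slight overlap, but was at -0.17 with spike-ins and did not pass without a filter. Falls were thus not limited to the mitochondrial ribosome, and no list was tested against another.

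The mRNAs that the mitochondrial ribosome translates went the other way. All 13 mRNAs of the mitochondrial genome, a list added after the data were seen, rose from GV to MII, 12 of them more than 2-fold, with a median log2 fold change of 1.28. Their sum was 3794, 4954 and 6390 CPM at GV and 7901, 11669 and 15811 CPM at MII, without overlap. For mt-Nd2 the levels were 131, 179 and 191 CPM and then 346, 472 and 591 CPM (log2 fold change 1.44, SE 0.14, adjusted p 1.05e-05), and mt-Nd5 changed by 1.37 (SE 0.14, adjusted p 1.13e-05). Their sign stayed positive with spike-ins, with lowest values over 19 alternatives of 0.69 and 0.65. In batch B the sum was 863, 1008 and 2489 CPM at GV and 357, 774 and 1314 CPM at MI, with overlap, and 0 of 12 tested passed. Among the 10 oocyte markers 5 fell, 4 of them more than 2-fold, and 0 rose, with Zp3, of the zona pellucida, from 1654, 2207 and 3541 CPM to 342, 498 and 736 CPM (log2 fold change -2.21, SE 0.22, adjusted p 1.05e-05). Of the cumulus and granulosa markers 2 could be tested in batch A, Kitl and Cyp19a1, and 0 passed, at log2 fold changes of -0.52 and 0.12 that each had an unadjusted p over 0.05. In batch B 2 of 5 tested, Ccnd2 and Gja1, named after their values were seen, were lower at MI, from 0.354 to 8.91 CPM and 0.371 to 10.2 CPM at GV to at most 1.31 and 0.962 CPM, at log2 fold changes of -3.69 and -3.42 (SE 0.68 and 0.62, each adjusted p 0.0174). The 1 blood and immune marker tested there did not pass.

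Reads of some members can come from a neighbouring gene. Of the 78 genes, 33 share exonic bases with another annotated gene, 28 with one on the opposite strand and 8 with one on the same strand, and in 17 more than 10% of the exonic bases are shared. No strand setting of the counting is stated. Among the members that fell, the most shared with any 1 gene is 69.8% in Mrps25, 33.4% in Mrpl43, 26.3% in Mrpl24, 24.2% in Mrps27, 23.2% in Mrps18c, 19.9% in Mrps6, 15.4% in Mrps24, 13.1% in Mrpl12, 12.2% in Mrpl46 and 11.2% in Mrpl14, and less in the others. Among members that did not pass it reaches 88.0% in Mrpl53 and 63.4% in Mrps34. How far such reads enter the counts was not tested.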

How the data were processed

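RNA of 37 single oocytes was measured after Smart-seq2 amplification, which is primed on poly(A) and keeps no strand information. The authors trimmed reads with Trim Galore 0.6.4 and used RSEM 1.3.1, with mm10, GENCODE VM20 and ERCC sequences, to estimate expected counts of genes and transcripts, which were deposited. The deposited HTSeq counts per gene were made by the authors with STAR 2.7.6a and HTSeq 0.12.4. No deposited table was normalised.

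Rows were matched to GENCODE M21 by identifier. Expected counts were rounded to whole numbers, neither tests nor library sizes included the 92 spike-ins, and genes kept by edgeR's filterByExpr were tested within each batch with edgeR 4.0.16 in R 4.3.3, by its two-sided quasi-likelihood test with TMM scaling and Benjamini-Hochberg adjustment over all genes tested. CPM uses TMM library sizes, each batch scaled on its own. An SE is the log2 fold change over the square root of the F statistic. The difference of the changes used 4 group means. Alternatives were no filter, RLE size factors, DESeq2 1.42.0, HTSeq counts, spike-in size factors in batch A, a replicate block, each batch A oocyte left out in turn, MI oocytes 4, 8 and 9 or 15 left out, 1 model of stage and batch, and subunits by structure. Spike-ins were near 0 in batch B, at up to 32 counts, so no spike-in scaling was made there. The tests were also tried on simulated data, and nothing here is read from that trial.

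Members and lists were chosen with earlier results of these data known. Named genes are the 8 large and 6 small subunit members with the smallest adjusted p to MII, the 4 positive ones with the smallest p, the 3 of highest level in each subunit, those with a known special place or role, the 3 of smallest p each way to MI, the 3 of smallest p in the difference, the 3 that differ most between the count tables, 4 transcripts each way, and 2 genes each way of each list. The lists are mitoribosome proteins of other names, translation factors, assembly factors, synthetases, cytoplasmic ribosomal proteins, respiratory chain subunits, mitochondrial mRNAs, and markers of oocytes, granulosa cells and blood.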

Additional observations from a re-analysis of the deposited data

Results flagged for a closer look

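Among 129 groups of 6 or 10 oocytes examined, 9 held an oocyte that lay apart from the rest, and chance alone sets apart about 5% of such groups. In MII oocytes of batch A, the large to small subunit ratio of oocyte 3 was 1.55, with the next at 1.45. The oocyte markers of oocyte 2 summed to 9258 CPM, with the next at 7704 CPM. Oocyte 1 had 13.9 CPM of blood and immune markers, with the next at 2.43 CPM, and counts for 29816 genes, with the next at 22598. Without this oocyte 16 members fell more than 2-fold from GV to MII in place of 20, and 15 of these are among the 20. The share of all genes that fell by that rule was then 5.74% in place of 6.32%.

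In GV oocytes of batch B, oocyte 7 had 104 CPM of Mrpl14 (next 52.7 CPM), 34.9 CPM of Mrpl4 (next 20.7 CPM) and 2489 CPM of mitochondrial mRNAs (next 1432 CPM). Oocyte 10 of that group had 5.12 CPM of Mrps18a, where the next lowest had 11.8 CPM, and 54.7 CPM of cumulus and granulosa markers, where the next highest had 38.3 CPM. Leaving out these GV oocytes of batch B was not tested.

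The change to MII and the change to MI, each against GV oocytes of its own batch, differed at an adjusted p under 0.05 by edgeR in 9 members. The change to MII was the lower of the pair in 8 and the higher in 1, against 2.36% and 3.1% of all genes tested. On the log2 scale the differences were -1.68 for Mrpl1, -1.24 for Mrpl2, -1.8 for Mrpl14, -2.21 for Mrpl23, -1.96 for Mrpl38, -1.29 for Mrpl42, 0.90 for Mrpl48, -1.92 for Mrpl52 and -1.43 for Mrps22. HTSeq counts kept 4 of the 9, and there the difference for Mrpl42 was -0.45.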

How the results depend on the processing

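Most results kept their side of the threshold. Of the named members' alternative values from GV to MII, 583 did, 12 newly passed, 11 no longer passed and 2 reversed; from GV to MI 254 did and 2 newly passed. Named genes of the lists gave 526, 19, 40 and 4, and named transcripts 129, 1, 6 and 0. Of those that kept their side, 7 of the 583, 19 of the 254 and 8 of the 526 changed sign, neither value passing.

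With spike-in size factors 52 members fell more than 2-fold and 66 at any fold (29.3% and 42.2% of all genes), 74 transcripts passed, and the medians were -1.29 for the large and -1.15 for the small subunit. Mrpl3 turned to -0.058, Gfm1 to -0.24, Nsun4 to -0.37 and Sdha to -0.17. On HTSeq counts 16 members fell more than 2-fold and 27 at any fold (5.04% and 8.79% of all genes). HTSeq counts gave 4 members whose changes differ, and turned Mrpl13 to -1.09 and Rpl5 to -1.04. In 1 model of stage and batch 12 members fell more than 2-fold and 16 at any fold from GV to MII (2.82% and 4.05% of all genes). From GV to MI 1 passed, as with DESeq2 (1). The cause was not tested.

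With the replicate block, which pairs oocytes by number, 18 members fell more than 2-fold, 25 passed at any fold and 10 transcripts passed. Of all genes tested with the block 5.17% fell more than 2-fold, and 7.66% fell and 4.62% rose at any fold. Paired values give no sign that numbers pair oocytes, with correlations of -0.39 to 0.36 in batch A and -0.20 to 0.14 in batch B. Leaving out each batch A oocyte in turn gave 14 to 24 members beyond 2-fold, 28 to 35 at any fold, 13 to 26 transcripts, and medians of -0.65 to -0.50 for the large and -0.50 to -0.33 for the small subunit. In the same fits 4.87% to 6.82% of all genes fell more than 2-fold, and 8.60% to 11.0% fell and 6.47% to 8.48% rose at any fold. The 14 members go with the 4.87%, without GV oocyte 5, and the 24 with the 6.82%, without MII oocyte 2. With members of at least 100 counts alone, a choice made after seeing the data, the medians were -0.50 and -0.41.

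Low counts limit some members, such as Mrps34 and Mrpl19, which could not be tested in batch B. Median total counts were no lower in batch B than in batch A. Mrpl19 had a mean of 3.56 CPM in GV oocytes of batch A and 0.369 CPM in those of batch B. Why these levels differ was not tested. Leaving out single oocytes of batch B, other than MI oocyte 15, was not run. Without a filter the median of all rows was 0.27.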
